A study of Homo sapiens with 6 samples.

Results

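The glioblastoma driver and 9p21 genes followed here are CDKN2A, CDKN2B, MTAP, NF1, TERT, ATRX, IDH1, MGMT and MDM4. They are 9 of the 58174 Ensembl genes in each deposited table and were picked by symbol, as genes that are often deleted, mutated, silenced or amplified in glioblastoma, together with the neighbours lost with CDKN2A on the short arm of chromosome 9. Total RNA of nuclear-enriched extracts, after removal of ribosomal RNA, was sequenced from the established human glioblastoma line LN-229 to find targets of JMJD1C, a JmjC-domain protein of the histone demethylase family. There were 3 libraries of sh-JMJD1C cells, by the usual reading of the name cells with a short hairpin RNA against JMJD1C, and they were set against 3 libraries of control-NC cells. Both groups share the cell line and the library kit, and the labels give no time point, no hairpin sequence and no separate cultures, so p-values cover the variation among these libraries alone, which may be technical. Both groups are bulk RNA of a single line, in which fewer cells of a type and less RNA per cell cannot be told apart.

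CDKN2A encodes, from alternative first exons, p16INK4a, which blocks CDK4 and CDK6 ahead of RB, and p14ARF, which restrains MDM2. CDKN2B encodes the related inhibitor p15INK4b. MTAP, the next gene along, salvages methionine from methylthioadenosine, and its loss raises a metabolite that weakens the methyltransferase PRMT5. NF1 turns RAS off, MDM4 is a relative and partner of MDM2, TERT is the catalytic subunit of telomerase, ATRX is a chromatin remodeller whose loss accompanies telomere maintenance without telomerase, IDH1 makes 2-oxoglutarate from isocitrate in the cytosol, and MGMT removes alkyl groups from guanine and so protects against temozolomide.

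CDKN2A and CDKN2B descend from a common gene, and their second exons still share a run of 80 identical bases, the longest between their annotated transcripts. Reads inside that run could be counted for either gene, which bears on the ratio of the pair. Of the 4550 distinct 50-base windows of CDKN2A transcripts, 31 also occur in CDKN2B (0.681%), and those 31 are 0.765% of the windows of CDKN2B. A larger share of the CDKN2A windows, 6.48%, occurs in transcripts of CDKN2B-AS1, the long non-coding RNA ANRIL on the opposite strand. The use of strand in counting is not given in the sources used here, so reads of the overlap cannot be assigned to a strand. MTAP shared 9.24% of its windows with other genes, most of them with an endogenous retrovirus copy inside it and unnamed transcripts that overlap it, MGMT shared 6.76%, NF1 shared 2.13%, partly with its pseudogenes, IDH1 shared 1.23% and MDM4 1.13%. TERT and ATRX shared 0 windows, and values of the others are uncertain to the extent of that overlap.

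The deposited values are FPKM, from which whole reads were recovered, as described under the processing. The sh-JMJD1C libraries held 1676755, 1919675 and 1660561 reads and the control libraries 544442, 2004255 and 2960454, so a count of 0 allows up to 1.56 to 1.81 RPM (reads scaled to a library of 1000000) in sh-JMJD1C libraries and 1.01 to 5.51 RPM in control libraries. Levels below are scaled RPM, which is RPM divided by a median-ratio factor per library, unless another scale is named. The targeted gene, JMJD1C, had 43.1, 10.97 and 28.1 scaled RPM in sh-JMJD1C 1 to 3, against 168, 93.1 and 171 in control 1 to 3, -2.49 on the log2 scale in limma-voom (Benjamini-Hochberg adjusted p = 0.0253). JMJD1C is itself long (longest transcript 8666 bases) and AT-rich (39.9% GC). Among 10 equal bins of all genes tested, its bin by length had a median log2 fold change of -0.87, and its bin by GC content -0.89. Libraries also differed in RNA classes: MALAT1, a nuclear long non-coding RNA, took 0.0915% to 0.292% of reads in sh-JMJD1C libraries against 1.25% to 2.40% in control libraries, and RN7SL transcripts took 1.18% to 18.5% against 0.378% to 1.77%. Control 1 was the shallowest library, and sh-JMJD1C 1 stood apart from the other sh-JMJD1C libraries in RN7SL, with 1.18% against 15.7% and 18.5%, and in mitochondrial transcripts, with 12.6% against 1.33% and 1.70% (2.93% to 8.70% in control libraries), so results are also given without these libraries where a call changes. Of the 9 glial and neural stem markers, VIM and CD44 held most reads, GFAP had 0 to 6 reads in any library and S100B, OLIG2 and AQP4 had 0 in all 6, and the summed level was 671 to 1475 RPM in sh-JMJD1C libraries and 808 to 1527 in control libraries. The 4 epithelial markers summed to 3371 to 5417 RPM in sh-JMJD1C libraries against 748 to 1444 in control libraries, nearly all of it the keratins KRT8 and KRT18, while EPCAM was at 0 in sh-JMJD1C libraries and at 0 to 11 reads in control libraries. Sums of 3 blood, 3 endothelial and 3 neuronal markers stayed at or under 12.5 RPM in every library, and PECAM1 and CD3E were at 0 in all. The part of these shifts in the results below was not tested.

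Apart from TERT, which was at 0 in sh-JMJD1C 1, the genes were above 0 in all 6 libraries. For LN-229, cell line repositories describe a possible homozygous deletion of CDKN2A, yet CDKN2A had more reads over the 6 libraries, 2982, than any other of the 9 genes. Of these reads, 2328 were in sh-JMJD1C libraries. The 654 in control libraries were fewer than those of ATRX (1326), NF1 (875), MDM4 (842) and IDH1 (835). Which cells the libraries hold, and which exons the CDKN2A reads cover, was not tested, since the tables hold a single value per gene. In the authors' deposited FPKM, which for CDKN2A divides by the summed length of its annotated transcripts, CDKN2A stood at 26.4, 52.5 and 39.1 in sh-JMJD1C libraries and at 8.62, 16.4 and 7.22 in control libraries.

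The level of CDKN2A was higher, and those of MDM4 and ATRX lower, in sh-JMJD1C libraries than in control libraries, each about 4- to 5-fold, and these 3 passed limma-voom on recovered reads. None of the 3 passed once the trend of fold changes over transcript length was removed, which left 1 call among the 8 genes, IDH1, beside 406 of 11877 genes (3.42%). Every sh-JMJD1C library also lay below all control libraries for IDH1, NF1 and CDKN2B and above them for MGMT, but these did not pass. MTAP and TERT overlapped between the groups. In limma on log2 of scaled FPKM plus 0.5, 0 of the 8 genes with enough signal passed at an adjusted p under 0.05, with 4 at an unadjusted p under 0.05 (CDKN2A, ATRX, IDH1 and MDM4). That fit called 34 of 18383 genes, 0.185%, and 19.9% of them had an unadjusted p under 0.05. In limma-voom, 3 of the 8 passed, beside 656 of 11877 genes (5.52%), with 30.8% of genes at an unadjusted p under 0.05. TERT passed the low-value filter of neither fit. Groups that do not overlap, with sh-JMJD1C higher, were seen for CDKN2A and MGMT, beside 17.3% of all 11877 genes, and with sh-JMJD1C lower for CDKN2B, NF1, ATRX, IDH1 and MDM4, beside 17.2%. For each of these 7 an exact two-sided permutation test over libraries gave p = 0.10, the smallest that 3 against 3 libraries allow.

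**Figure D1:**
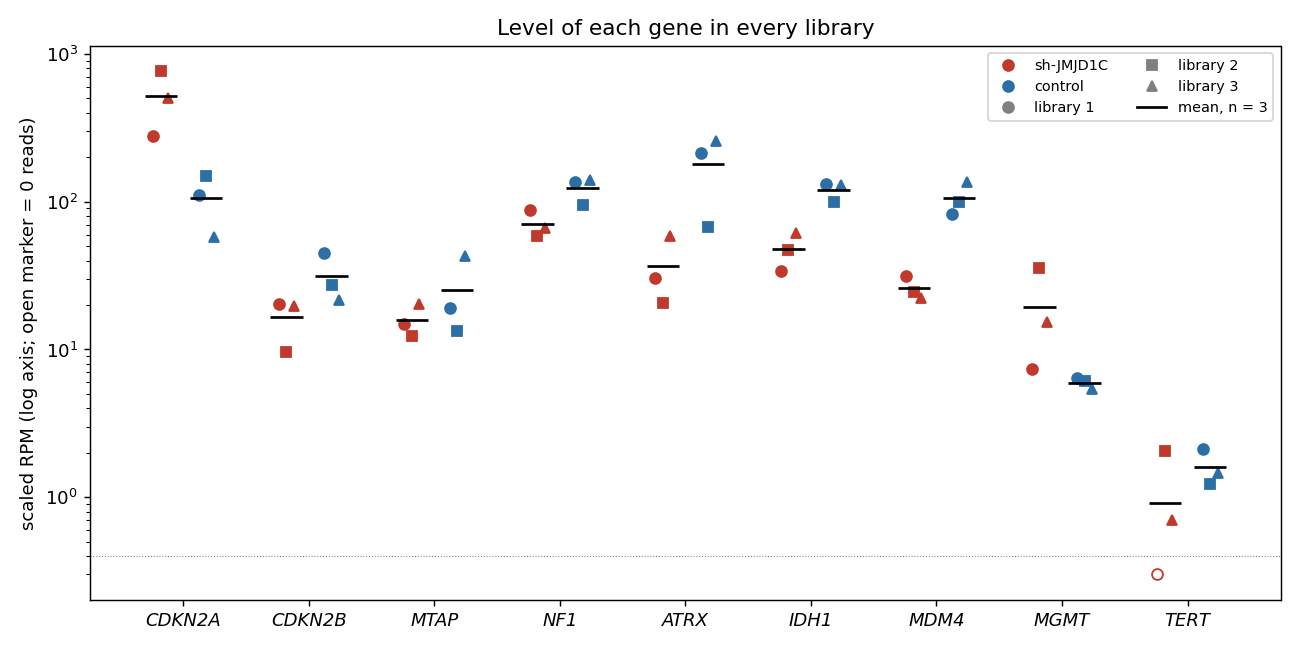
Level of each of the 9 genes in every library, in scaled RPM on a log axis, sh-JMJD1C in red left of control in blue. Marker shapes give the library number and black bars the mean of 3 libraries. CDKN2A and MGMT lie higher in sh-JMJD1C, MTAP and TERT overlap, the other 5 lie lower, and the open marker is TERT at 0 reads in sh-JMJD1C 1.

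CDKN2A (ENSG00000147889, chromosome 9, 21967753 to 21995301, minus strand) had 491, 1117 and 720 reads in sh-JMJD1C 1 to 3, or 279, 766 and 506 scaled RPM. Control 1 to 3 had 52, 365 and 237 reads, or 111, 148 and 57.9 scaled RPM. The lowest sh-JMJD1C library was above the highest control library, and the means were 517 ± 244 in sh-JMJD1C and 106 ± 45.5 in control (SD, n = 3 each, as for all means below), 4.89-fold. The log2 fold change was 2.29 (SE 0.48) in limma-voom with an adjusted p of 0.0276, and 2.15 (SE 0.51) in limma on FPKM with an adjusted p of 0.125. In limma-voom the adjusted p became 0.0938 with control 1 left out, 0.118 with control 3, 0.126 with sh-JMJD1C 2 and 0.067 with sh-JMJD1C 3. CDKN2A passed with both libraries numbered 1 left out (2.77, adjusted p = 0.0212), beside 8.38% of all genes tested. It stood at 1.504 on the log2 scale (SE 0.39, adjusted p = 0.0548) with the length trend removed and 0.98 (adjusted p = 0.0658) with length and GC trends removed. Since the tables give a single value per gene, p16INK4a and p14ARF transcripts cannot be told apart.

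CDKN2B (ENSG00000147883, chromosome 9, 22002903 to 22009363, minus strand), whose start lies 14.1 kb from that of CDKN2A and which is read from the same strand, pointed the other way. It had 36, 14 and 28 reads in sh-JMJD1C 1 to 3 and 21, 67 and 89 in control 1 to 3. On the scaled RPM scale these were 20.4, 9.60 and 19.7 in sh-JMJD1C and 44.8, 27.2 and 21.7 in control, so the groups did not overlap, although sh-JMJD1C 1 and control 3 lay close together. Its log2 fold change of -0.77 (SE 0.47, 95% interval -1.80 to 0.25) did not pass in limma-voom (adjusted p = 0.277).

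The ratio of CDKN2A to CDKN2B reads within a library needs no scaling between libraries. It was 13.6 (exact 95% interval 9.72 to 19.7), 79.8 (47.4 to 146) and 25.7 (17.6 to 38.98) in the sh-JMJD1C libraries in order of number, against 2.48 (1.47 to 4.33), 5.45 (4.19 to 7.18) and 2.66 (2.08 to 3.44) in control 1 to 3. No interval of a sh-JMJD1C library reached an interval of a control library. The exact two-sided permutation test on log2 ratios gave p = 0.10, the smallest it allows, and the intervals cover counting error only. The ratio is not free of the trends over transcript length and GC content: the limma-voom log2 fold change of CDKN2A minus that of CDKN2B was 3.06 as recovered, 2.13 with the length trend removed and 1.34 with length and GC trends removed.

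**Figure D2:**
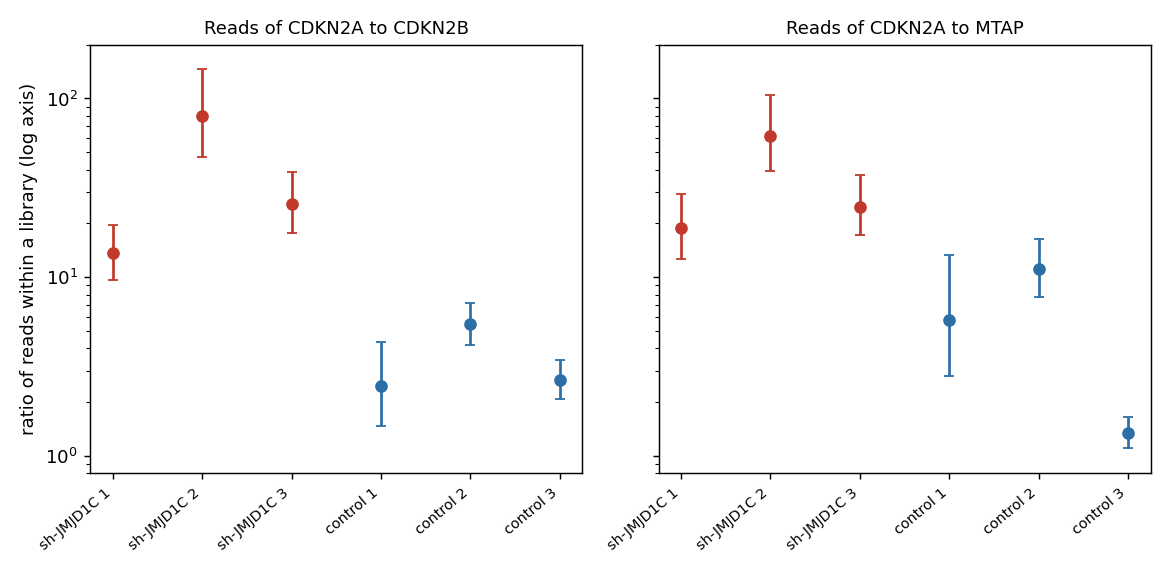
Reads of CDKN2A divided by those of CDKN2B (left) and of MTAP (right) within each library, on a log axis, with exact 95% intervals for counting error. The sh-JMJD1C libraries (red) have CDKN2A to CDKN2B ratios of 13.6 to 79.8, against 2.48 to 5.45 in the control libraries (blue).

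MTAP (ENSG00000099810, chromosome 9, 21802543 to 21937651, plus strand) had 26, 18 and 29 reads in sh-JMJD1C 1 to 3, against 9, 33 and 176 in control 1 to 3. The levels were 14.8, 12.3 and 20.4 scaled RPM in sh-JMJD1C and 19.2, 13.4 and 43.0 in control, and only control 3 stood clear of the rest. A log2 fold change of -0.61 (SE 0.53, 95% interval -1.78 to 0.55) did not pass in limma-voom (adjusted p = 0.442). The ratio of CDKN2A to MTAP reads was 18.9, 62.1 and 24.8 in sh-JMJD1C libraries and 5.78, 11.1 and 1.35 in control libraries, also without overlap (exact two-sided permutation p = 0.10). The log2 fold change of CDKN2A minus that of MTAP was 2.90 as recovered, 1.45 with the length trend removed and 0.33 with both trends removed. The reads of MTAP are less certain in size, since the length behind its deposited values (24320 bases) is not the summed length of its annotated transcripts (29235 bases).

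Within 2 Mb on either side of CDKN2A, 30 of 78 annotated genes were above 0 in a library, 10 of the 26 protein-coding ones among them. With at least 60 reads, 10 genes entered limma-voom, which called 1 higher (CDKN2A) and 0 lower, beside 5.52% of all genes tested. FOCAD, a focal adhesion gene, had 220 reads in sh-JMJD1C libraries and 218 in control libraries, 155 of them in control 3, which is 47.8 scaled RPM in sh-JMJD1C and 29.2 in control (0.74 on the log2 scale, adjusted p = 0.227 in limma-voom). MLLT3, a chromatin reader of transcription elongation, had 72 in sh-JMJD1C libraries against 218 in control libraries, and KLHL9, an adaptor of a ubiquitin ligase, had 53 in sh-JMJD1C libraries against 172 in control libraries. Neither passed, with limma-voom log2 fold changes of -1.18 for MLLT3 (adjusted p = 0.126) and -0.75 for KLHL9 (adjusted p = 0.393). CDKN2B-AS1 had 8, 31 and 31 reads in sh-JMJD1C 1 to 3 against 2, 8 and 47 in control 1 to 3 (0.93 on the log2 scale, adjusted p = 0.403 in limma-voom). Among the protein-coding interferon genes of this window, IFNA1 and IFNE alone had reads, 2 and 1, both in control 3.

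**Figure D3:**
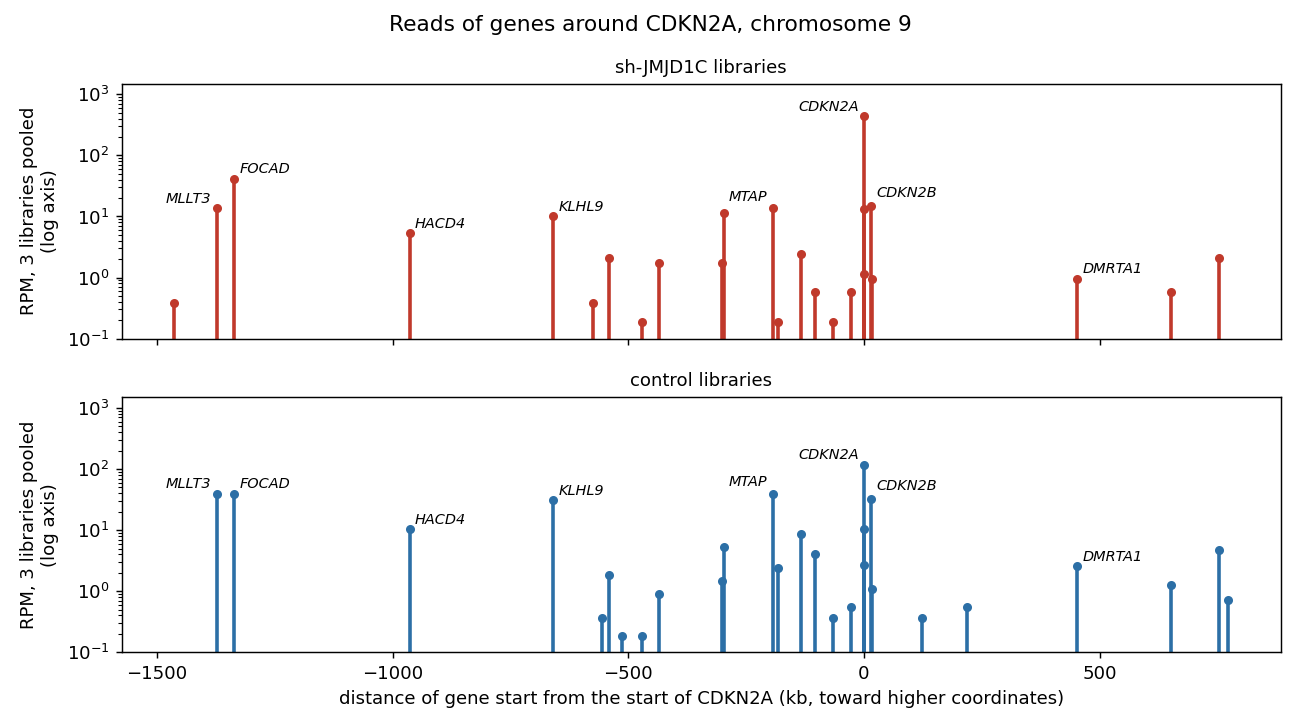
RPM of every gene above 0 around CDKN2A, 3 libraries pooled per group, by the distance of its start from that of CDKN2A (log axis), sh-JMJD1C above control. CDKN2A stands highest in both groups, and reads are present on both sides of it, from MLLT3 to beyond DMRTA1.

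MDM4 (ENSG00000198625, chromosome 1, 204516379 to 204558120, plus strand) fell in limma-voom. It had 55, 36 and 32 reads in sh-JMJD1C 1 to 3 and 39, 244 and 559 in control 1 to 3, which is 31.2, 24.7 and 22.5 scaled RPM in sh-JMJD1C and 83.2, 99.2 and 137 in control. The 3 sh-JMJD1C libraries lay close together and all below the lowest control library, with means of 26.1 ± 4.55 in sh-JMJD1C and 106 ± 27.4 in control, 4.07-fold lower. The log2 fold change was -2.01 (SE 0.39, adjusted p = 0.0216) in limma-voom and -1.13 (adjusted p = 0.185) in limma on FPKM, where the pseudocount understates the change of a gene listed at under 3 FPKM. In limma-voom the adjusted p became 0.0886 with control 1 left out, 0.0841 with control 3, 0.107 with sh-JMJD1C 2 and 0.067 with sh-JMJD1C 3. MDM4 passed with both libraries numbered 1 left out (-2.29, adjusted p = 0.0253), beside 8.38% of all genes tested. MDM4 stood at -1.20 on the log2 scale (adjusted p = 0.0778) with the length trend removed and -0.79 (adjusted p = 0.18) with length and GC trends removed.

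Its partners in the pathway of ARF and MDM2 gave no call: of 6 genes tested, 0 passed in limma-voom or in limma on FPKM, with 1 at an unadjusted p under 0.05 in each, and their median log2 fold change was -0.32 in limma-voom, against -0.08 over all genes. NPM1, a nucleolar chaperone that binds ARF and had the most reads, stood at 528 ± 207 scaled RPM in sh-JMJD1C and 724 ± 278 in control. MDM2, the ubiquitin ligase that MDM4 pairs with, was chosen after its values were seen and stood at 40.4 ± 14.7 in sh-JMJD1C and 109 ± 21.2 in control (-1.46 on the log2 scale, adjusted p = 0.0549 in limma-voom). With the length trend removed, MDM2 stood at -0.56 (adjusted p = 0.318 in limma-voom). CDKN1A, a CDK inhibitor chosen in the same way, stood at 102 ± 28.5 in sh-JMJD1C against 67.2 ± 9.92 in control and did not pass (adjusted p = 0.30 in limma-voom).

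Among the INK4 and RB genes, 8 of 10 were tested, 1 rose and 0 fell in limma-voom, with a median of -0.53. In limma on FPKM 0 of 9 passed, with 5 at an unadjusted p under 0.05. The gene that rose was CCND3, the cyclin D3 partner of CDK4 and CDK6, at 142 ± 41.1 scaled RPM in sh-JMJD1C against 30.0 ± 19.3 in control (2.19 on the log2 scale, adjusted p = 0.0277). CDK6, which had the most reads, stood at 143 ± 63.8 in sh-JMJD1C against 365 ± 98.7 in control (-1.43, adjusted p = 0.0683 in limma-voom). CDK4, chosen after its values were seen as the other target of the INK4 proteins, stood at 356 ± 228 in sh-JMJD1C against 85.5 ± 10.2 in control (1.81, adjusted p = 0.053 in limma-voom). With the length trend removed from limma-voom, CDK6 stood at -0.55 (adjusted p = 0.362) and CDK4 at 1.33 (adjusted p = 0.0839). CCND2 was at 0 in all 6 libraries. Of the methionine salvage and PRMT5 genes around MTAP, 0 of 11 passed in either fit, with 4 at an unadjusted p under 0.05 in limma-voom, a median of 0.76, and MAT2A, the methionine adenosyltransferase, as the gene with the most reads (152 ± 44.9 in sh-JMJD1C and 185 ± 63.2 in control).

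NF1 (ENSG00000196712, chromosome 17, 31094927 to 31382116, plus strand) had 156, 85 and 94 reads in sh-JMJD1C 1 to 3 and 64, 234 and 577 in control 1 to 3. It stood at 88.6, 58.3 and 66.0 scaled RPM in sh-JMJD1C and 136, 95.1 and 141 in control. Every sh-JMJD1C library was below every control library, by a small margin between sh-JMJD1C 1 and control 2. NF1 had a log2 fold change of -0.79 (SE 0.37, 95% interval -1.60 to 0.011), which did not pass in limma-voom (adjusted p = 0.166). Of the other brakes on RAS, 0 of 8 passed in limma-voom and 0 of 7 in limma on FPKM, with 3 and 2 at an unadjusted p under 0.05 and a median of -1.18 in limma-voom. RASAL2, a RAS GTPase activator with the most reads of these, stood at 29.5 ± 11.9 in sh-JMJD1C and 63.3 ± 19.3 in control (adjusted p = 0.104 in limma-voom).

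TERT (ENSG00000164362, chromosome 5, 1253147 to 1295069, minus strand) was at the limit of detection. It had 0, 3 and 1 reads in sh-JMJD1C 1 to 3 and 1, 3 and 6 in control 1 to 3. Pooled, 4 reads in sh-JMJD1C and 10 in control gave 0.761 and 1.82 RPM, a ratio of 0.419 (exact 95% interval 0.096 to 1.45), so a difference was not detectable at this depth. The 0 reads of sh-JMJD1C 1 allow up to 1.79 RPM. The tables also hold values for 10 rising shares of the reads of each library, and TERT was above 0 in 38 of those 60 draws, CDKN2A, CDKN2B, NF1, ATRX, IDH1 and MDM4 were above 0 in all 60, and MTAP and MGMT were above 0 in 58. These draws are subsets of the same reads.

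ATRX (ENSG00000085224, chromosome X, 77504878 to 77786233, minus strand) fell in limma-voom. It had 54, 30 and 84 reads in sh-JMJD1C 1 to 3 and 100, 166 and 1060 in control 1 to 3. The levels were 30.7, 20.6 and 59.0 scaled RPM in sh-JMJD1C and 213, 67.5 and 259 in control. Control 2 lay far below the other control libraries and just above sh-JMJD1C 3, and the means were 36.7 ± 19.9 in sh-JMJD1C and 180 ± 100.01 in control, 4.90-fold lower. The log2 fold change was -2.18 (SE 0.57, adjusted p = 0.0469) in limma-voom and -1.60 (adjusted p = 0.173) in limma on FPKM. ATRX passed with control 2 left out, beside 1187 of 11197 genes (10.6%), and with no other library left out. The adjusted p was 0.146 without control 1, 0.153 without control 3 and 0.062 to 0.20 without a sh-JMJD1C library. Without both libraries numbered 1 it was 0.144. The log2 fold changes ran from -2.80 to -1.81 over the single removals. With the length trend removed it was -1.33 (adjusted p = 0.133), and with length and GC trends removed -0.67 (adjusted p = 0.189).

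Among 11 tested genes of telomerase and the telomere cap, 1 rose and 0 fell in limma-voom, with a median of 0.27, and 0 of 11 passed in limma on FPKM, with 3 at an unadjusted p under 0.05. NHP2, a protein of box H/ACA ribonucleoproteins including telomerase, rose to 128 ± 48.3 scaled RPM in sh-JMJD1C, against 34.5 ± 12.1 in control (1.88 on the log2 scale, adjusted p = 0.0391). DKC1, dyskerin, of the same particle and with the most reads, stood at 89.6 ± 24.5 in sh-JMJD1C and 106 ± 20.7 in control. TERC, the RNA template of telomerase, had 2 reads in sh-JMJD1C 1 and 0 in the other libraries. DAXX, which loads histone H3.3 together with ATRX and was chosen after its values were seen, stood at 90.4 ± 16.3 in sh-JMJD1C and 38.0 ± 13.1 in control (1.20, adjusted p = 0.0735 in limma-voom). With the length trend removed, DAXX stood at 0.97 (adjusted p = 0.128 in limma-voom).

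IDH1 (ENSG00000138413, chromosome 2, 208236227 to 208266074, minus strand) had 60, 69 and 88 reads in sh-JMJD1C 1 to 3 and 62, 245 and 528 in control 1 to 3. It stood at 34.1, 47.3 and 61.8 scaled RPM in sh-JMJD1C and 132, 99.6 and 129 in control, with a clear gap between the groups and means of 47.7 ± 13.9 in sh-JMJD1C and 120 ± 18.0 in control. The log2 fold change of -1.36 (SE 0.38) lay just outside the threshold in limma-voom (adjusted p = 0.0547). It passed in limma-voom over protein-coding genes alone (-1.34, adjusted p = 0.0444), beside 10.6% of those genes. It also passed after the trend over transcript length was removed (-1.65, adjusted p = 0.0347), beside 3.42% of all genes. With 1 library left out the adjusted p was 0.171 without control 1, 0.15 without control 3, 0.191 without sh-JMJD1C 2 and 0.0506 to 0.0916 without each of the others. IDH2, the mitochondrial enzyme of the same step, rose in limma-voom, with 37, 110 and 71 reads in sh-JMJD1C 1 to 3 against 0, 25 and 25 in control 1 to 3 (2.73 on the log2 scale, adjusted p = 0.0479). It was the only call among 9 tested genes of isocitrate and 2-oxoglutarate metabolism, whose median was 0.93, and limma on FPKM called 0 of 8, with 4 at an unadjusted p under 0.05. OGDH, which consumes 2-oxoglutarate and had the most reads, stood at 678 ± 221 in sh-JMJD1C and 357 ± 139 in control (adjusted p = 0.16 in limma-voom).

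MGMT (ENSG00000170430, chromosome 10, 129467184 to 129768007, plus strand) was low but present. It had 13, 52 and 22 reads in sh-JMJD1C 1 to 3 and 3, 15 and 22 in control 1 to 3. In scaled RPM this was 7.38, 35.6 and 15.5 in sh-JMJD1C and 6.40, 6.10 and 5.38 in control. The control libraries lay close together, and sh-JMJD1C 1 was only slightly above them while sh-JMJD1C 2 was far above. At 1.42 (SE 0.63, 95% interval 0.044 to 2.80) on the log2 scale, MGMT did not pass in limma-voom (adjusted p = 0.153). It passed without sh-JMJD1C 1 (2.03, adjusted p = 0.0305), a setting that called 2305 of 11474 genes (20.1%). MGMT stood at 0.89 (adjusted p = 0.458) without sh-JMJD1C 2 and at 0.81 (adjusted p = 0.347) with the length trend removed. Of 10 tested genes of alkylation and mismatch repair, 0 passed in either fit, with 2 at an unadjusted p under 0.05 in limma-voom and 1 in limma on FPKM, and their median was 0.0033. PARP1, a sensor of DNA breaks and the gene with the most reads, stood at 277 ± 41.8 in sh-JMJD1C and 208 ± 23.2 in control (adjusted p = 0.431 in limma-voom).

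Of 15 tested other genes that are recurrently altered in glioblastoma, 0 passed in limma-voom, with 9 at an unadjusted p under 0.05, and 0 of 14 passed in limma on FPKM, with 7 at an unadjusted p under 0.05. Over all genes 30.8% in limma-voom and 19.9% in limma on FPKM were at that level, which also stands beside the counts of the other lists. The median was -0.82. EGFR, the receptor most often amplified in this tumour and the gene with the most reads here, stood at 440 ± 272 scaled RPM in sh-JMJD1C and 1136 ± 37.2 in control (-1.54 on the log2 scale, adjusted p = 0.0587 in limma-voom). With the length trend removed, EGFR stood at -0.72 (adjusted p = 0.241 in limma-voom). PDGFRA was at 0 in all 6 libraries.

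The 8 tested genes differ widely in the length and base composition of their transcripts, and fold changes over all genes moved with both. Over the 11877 genes of limma-voom, split into 10 equal bins by longest annotated transcript, the median log2 fold change was 0.91 in the bin of the shortest and -0.87 in the bin of the longest. In 10 bins by GC content it was -1.05 in the bin lowest in GC and 0.68 in the highest. CDKN2A (longest transcript 1283 bases, 61.4% GC) and MGMT (1759 bases, 57.5%), the pair with higher levels, are short and GC-rich. NF1 (12425 bases, 41.6%), ATRX (11167 bases, 36.9%), MDM4 (10073 bases, 42.4%) and MTAP (7557 bases, 39.1%) are long and AT-rich, and CDKN2B (3911 bases, 44.6%) and IDH1 (2441 bases, 43.1%) lie between in length. By GC content, IDH1 falls in the same bin as NF1 and MDM4, a bin with a median log2 fold change of -0.63. Among genes of its own length bin, CDKN2A stood at percentile 94.0 of log2 fold change, MGMT at 75.0, NF1 at 54.1, MTAP at 51.1, CDKN2B at 27.8, IDH1 at 8.69, MDM4 at 8.09 and ATRX at 6.16. The change of NF1 and of MTAP was near the median of genes of like length, and that of ATRX, MDM4 and IDH1 was below percentile 10.

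With the trend over length removed from each library, CDKN2A, MDM4 and ATRX were no longer past the threshold, as given with each gene. NF1 and MTAP turned sign, to 0.11 and 0.053, and CDKN2B (-0.62) and MGMT (0.81) kept theirs. With length and GC trends both removed, IDH1 again passed alone (-1.29, adjusted p = 0.0288), beside 6.75% of all genes. Of the partners called, CCND3 passed with the length trend removed (1.87, adjusted p = 0.0426), and IDH2 (2.54, adjusted p = 0.0539) and NHP2 (1.03, adjusted p = 0.109) did not. Medians of the lists also moved with the length trend removed, and that of the telomere genes turned sign, to -0.11. The median was then -0.61 for the brakes on RAS, -0.31 for the other glioblastoma genes, -0.25 for the INK4 and RB genes and -0.19 for the pathway of ARF and MDM2. It was 0.18 for methionine salvage and PRMT5, 0.86 for isocitrate and 2-oxoglutarate metabolism and 0.12 for alkylation and mismatch repair, against -0.023 over all genes.

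**Figure D4:**
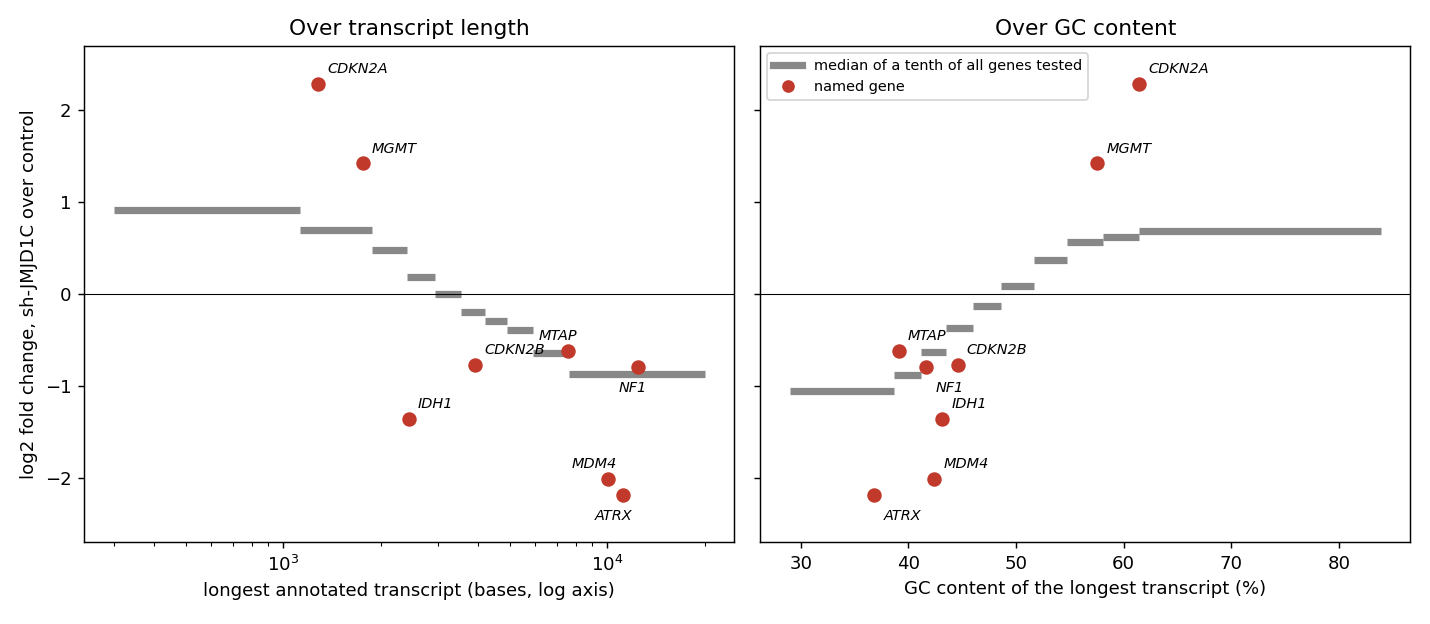
Log2 fold changes of the 8 tested genes (red) in limma-voom against the longest annotated transcript (left, log axis) and its GC content (right). Grey bars are medians of 10 equal bins of all genes tested (the outermost length bins are drawn shortened), which run from 0.91 to -0.87 over length. NF1 and MTAP lie near the bar of their length, CDKN2A above its bar, and IDH1, MDM4 and ATRX below theirs.

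**Figure D5:**
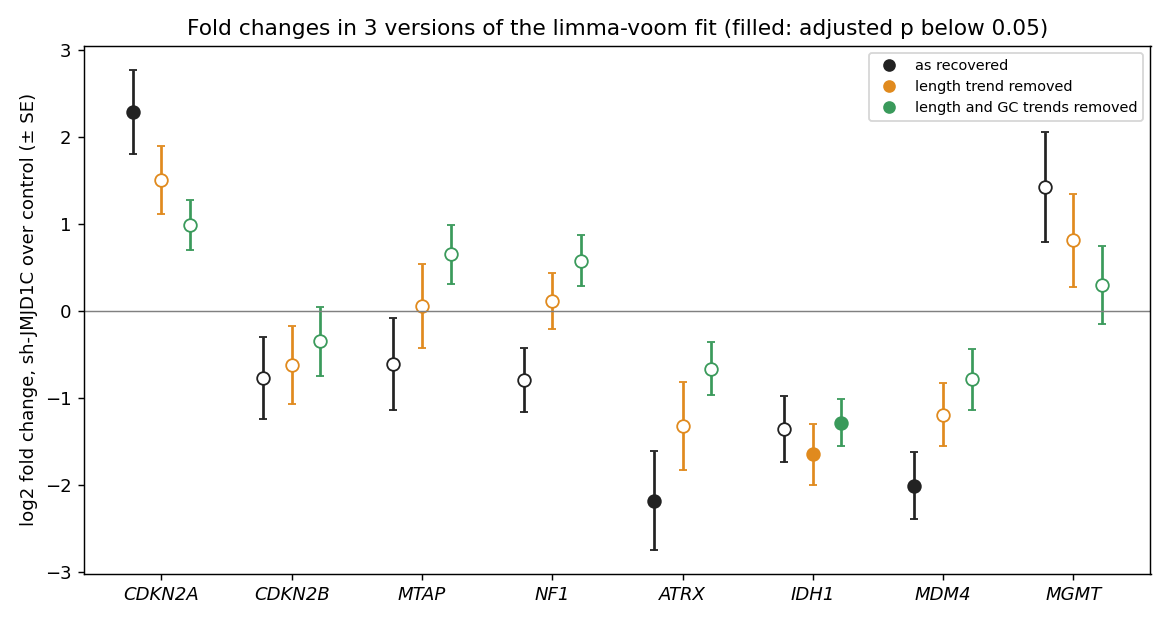
Log2 fold changes with standard errors of the 8 tested genes in limma-voom as recovered (black), with the length trend removed (orange) and with length and GC trends removed (green). Filled markers have an adjusted p under 0.05: CDKN2A, ATRX and MDM4 as recovered, and IDH1 in the other 2 versions.

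Levels were compared between the genes as RPM per kilobase of the union of annotated exons. In sh-JMJD1C libraries CDKN2A led with 100.7 ± 33.4, above IDH1 (8.81 ± 2.10), MGMT (4.51 ± 2.80), CDKN2B (3.75 ± 1.78), NF1 (2.38 ± 0.934), MDM4 (2.14 ± 0.724), ATRX (1.70 ± 0.908), MTAP (0.966 ± 0.289) and TERT (0.157 ± 0.171). There, CDKN2A and TERT stood clear of their neighbours in every library, and all neighbours between IDH1 and MTAP overlapped. In control libraries IDH1 (29.3 ± 7.43) and CDKN2A (27.5 ± 12.7) were at the top by mean and overlapped, followed by MDM4 (11.6 ± 5.34), ATRX (10.8 ± 7.23) and CDKN2B (8.38 ± 1.06), which also overlapped with their neighbours among these 3. CDKN2A did not stand clear of ATRX, which was just above it in control 3 (18.59 against 18.49). NF1 (5.27 ± 1.65) lay below CDKN2B in every library but overlapped with ATRX and MDM4. MTAP (2.11 ± 1.70) with MGMT (1.91 ± 0.316), and then TERT (0.388 ± 0.0583), were lower in steps that did not overlap. By its mean, MGMT stood above CDKN2B, NF1, MDM4, ATRX and MTAP in sh-JMJD1C libraries and below all of them in control libraries.

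Genes whose log2 scaled RPM over the 6 libraries were most like those of 7 of the 8 tested genes, by Pearson r among 10210 protein-coding genes, are given as a description. They were NABP2, PPP1CA and COX6B1 for CDKN2A (r from 0.997 to 0.999), WDFY2, FADS1 and PURA for MDM4 (0.994 to 0.995), CDC7, ROCK2 and ZNRF2 for ATRX (0.997 to 0.998), and GOLM2, PTER and COBLL1 for IDH1 (0.995). For MGMT they were NUBP2, NME3 and GNL1 (0.992 to 0.993), for CDKN2B MIX23, DNAJC6 and TCEAL4 (0.984 to 0.992), and for MTAP TMEM45A, NR3C1 and ANXA1 (0.989 to 0.996). With 6 points in groups that stand apart, high values are common: 425 genes had an r of at least 0.95 with CDKN2A, 359 with ATRX, 276 with NF1, 207 with MGMT, 124 with MDM4, 106 with IDH1, 63 with MTAP and 31 with CDKN2B. All points share the same libraries, depths and scaling.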

How the data were processed

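The authors deposited 1 table per library with FPKM of 58174 Ensembl genes, per the file headers on rising shares of the reads; the full library was used. The submitters' processing notes list Bowtie 0.12.2 and hg38 without saying how each was used. How reads were counted, on which annotation and strand, is not given in the sources used here. Names, coordinates (counted from 1) and transcripts are from GENCODE release 29 (57836 IDs matched). Low FPKM are whole multiples of 1 read, so whole reads were recovered from each gene's length and the library total. For 27483 of 29280 genes above 0 (93.9%) the length was the sum of all annotated transcripts, and for 1797, MTAP, TERT and ATRX among them, the smallest length giving whole reads. Below 1000 reads, 100.0% of values came out whole to 0.05 of a read. The choice of length ensures this, so it is no test of the recovered reads.

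The first test was limma 3.58.1 (R 4.3.3) with trend on log2(median-ratio scaled FPKM + 0.5), for genes with a mean of at least 0.5, sh-JMJD1C minus control, two-sided, Benjamini-Hochberg at 0.05. Fold changes on that scale understate low genes. The second was limma-voom on recovered reads of genes with at least 60, with median-ratio scaling on genes averaging 20 or more reads, and again with lowess trends (span 0.3) over longest transcript length, or length and GC, removed. The second fit rests on reads inferred from the FPKM. Scripts were run on simulated reads that held no trend over length or GC and no shift of RNA classes between libraries. That run is therefore no test of the calls above. Intervals are Clopper-Pearson at 95%, and floors are 3 reads; both cover counting error only. No pair of libraries was identical. The 9 genes, the lists and the rules were chosen with earlier results of these data known. Named partners were genes called by either fit and the gene with the most reads of each list; the other genes named (window neighbours, genes at or near 0 and those marked) were chosen after their values were seen. Some items that these rules name are not reported here. Alternatives are below.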

Additional observations from a re-analysis of the deposited data

How the results depend on the processing

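In limma on FPKM, 0 of the genes tested passed under other pseudocounts, scalings, filters (6 genes tested at a mean FPKM of at least 1, without MTAP and MDM4, and 9 with no filter), array weights, the replicate block or with any library left out. Over protein-coding genes alone 4 passed (CDKN2A, ATRX, IDH1 and MDM4), beside 8.99% of those genes. In limma-voom, 3 or 4 passed under TMM, quantile or library-total scaling, a filter of 20 reads or protein-coding genes alone. In the same order these settings called 6.15%, 8.59%, 10.1%, 4.78% and 10.6% of all genes tested. The count was 1 with the length trend removed (beside 3.42% of all genes) and 1 with length and GC trends removed (beside 6.75%). The latter alternative was chosen after seeing the data, as was the protein-coding limit in limma-voom. The count was 2 without both libraries numbered 1, beside 8.38%, and 0 to 3 with 1 library left out, beside 0.271% to 20.1%. It was 0 without control 1, control 3, sh-JMJD1C 2 or sh-JMJD1C 3, whose removal left 31 to 99 genes called in all. With the replicate block 6 passed, beside 4260 of all 11877 genes. The labels state no block, so the number was not taken as a pairing. Same-numbered libraries deviated together with r of 0.0747, 0.389 and 0.472 for numbers 1 to 3. For numbers 2 and 3 this was the best match: sh-JMJD1C 2 had -0.133 with control 1 and -0.236 with control 3. In turn, sh-JMJD1C 3 had 0.0387 with control 1 and -0.535 with control 2. Whether these libraries were paired was not tested. sh-JMJD1C 1 correlated best with control 2 (0.137). MTAP turned sign after quantile normalization in limma on FPKM (0.0020) and, with NF1, in limma-voom with the length trend removed (0.053 and 0.11) and with both trends removed (0.65 and 0.57); the cause was not tested beyond these alternatives. Single genes kept their direction and side of the threshold in 121 of 126 settings of limma on FPKM and in 87 of 120 of limma-voom. Over all genes, limma on FPKM called 34, against 914 over protein-coding genes, 114 with array weights, 84 and 0 with pseudocounts of 0.1 and 1, 79 as deposited, 2 after quantile normalization, 0 with no filter, with the block or without both libraries numbered 1 (3821, 4407 and 4279 at an unadjusted p under 0.05), and 0 to 676 with 1 library left out. Limma-voom called 441 genes higher and 215 lower, against 311 and 884 with library totals, 533 and 487 after quantile normalization, and 278 and 128 with the length trend removed, 434 and 368 with both removed. Its total was 1079 over protein-coding genes and 31 to 2305 with 1 library left out. Dividing by the annotated length of MTAP, TERT and ATRX moved their mean reads by less than 1 SD. Since that changes a gene's reads by the same factor in every library, it does not test the recovered reads. Library-total scaling moved the median log2 fold change of all genes to -0.52, from -0.08. Depth limits TERT, and control 1, with 544442 reads, limits every comparison.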
